A study of Mus musculus with 4 samples.

Results

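The miRNAs of the imprinted Dlk1-Dio3 region, on mouse chromosome 12, were examined in the hippocampus of mice that learned a water maze well or poorly. Members were the mouse miRNA probes whose name carries 1 of the region's miRNA numbers, whatever the letter or arm. The rule uses names and no measured value, though earlier results of these data were known when members were chosen. This gave 75 of the 705 miRNA probes on the array. A probe was counted as detected when at least 2 of its 3 spots had the deposited quality flag 0 on both arrays of a group, and 40 of the 75 were detected, out of 316 probes in all. Hippocampi came from wild-type C57BL/6J mice, an inbred strain, that had been trained in the Morris water maze, where a mouse swims to a hidden platform, and were taken straight after training. All animals of both groups were trained, and no untrained group was analysed here. The groups are labelled by performance, good (2 arrays) or poor (2 arrays), with 4 mice per group stated. No source used here tells how mice were shared out over arrays. The p-values therefore cover array-to-array spread, which may be technical, and with so few arrays precision is limited throughout.

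In this region the paternal chromosome expresses protein-coding genes, among them Dlk1 and Rtl1, and the maternal chromosome expresses long noncoding RNAs, among them Meg3 and Rian, together with one of the largest groups of miRNA genes in placental mammals. The miRNAs lie in several stretches on one strand. A hairpin within Meg3 gives miR-770, a group antisense to Rtl1 gives miR-431, miR-433, miR-127, miR-434 and miR-136 and acts on the Rtl1 transcript, and the large cluster from miR-379 to miR-410 lies farther downstream. The region is known for strong expression in brain. In cultured neurons the miR-379 to miR-410 cluster is transcribed in response to activity under the control of MEF2, a transcription factor that is also named in the title of this study, and its member miR-134 limits the growth of dendritic spines.

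Sequences are from RefSeq, build GRCm38.p6, 5′ to 3′, and 72 of the 75 probes could be paired with a mature miRNA, among them 38 of the 40 detected ones. The array names of 28 of these 38 carry no arm (or a star), and the arm was then taken from the earlier miRBase meaning of that name, not from the files. The deposited tables hold no probe sequences. Shown first, with the seed (bases 2 to 8, which pair with target mRNAs) in capitals, are the members at the lower end of the good against poor comparison:
miR-665 (miR-665-3p): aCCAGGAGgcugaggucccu
miR-323-5p: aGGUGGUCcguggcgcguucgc
miR-770-3p: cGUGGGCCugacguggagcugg
miR-770-5p: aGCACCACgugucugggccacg
miR-337-3p: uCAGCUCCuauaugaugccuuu
miR-127 (miR-127-3p): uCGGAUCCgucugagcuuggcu

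The next set holds 4 members at the upper end of the comparison and miR-134, the member best known in dendrites, with the seed in capitals:
miR-494 (miR-494-3p): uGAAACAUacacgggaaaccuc
miR-543 (miR-543-3p): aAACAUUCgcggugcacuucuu
miR-379 (miR-379-5p): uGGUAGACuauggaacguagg
miR-410 (miR-410-3p): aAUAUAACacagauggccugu
miR-134 (miR-134-5p): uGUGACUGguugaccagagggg

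The last set is shown because, with miR-543 and miR-379 above, it makes up the 5 most similar pairs among the detected members, again with the seed in capitals:
miR-300 (miR-300-3p): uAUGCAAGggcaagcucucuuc
miR-381 (miR-381-3p): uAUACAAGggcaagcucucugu
miR-376a (miR-376a-3p): aUCGUAGAggaaaauccacgu
miR-376b (miR-376b-3p): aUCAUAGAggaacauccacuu
miR-495 (miR-495-3p): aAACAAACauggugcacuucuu
miR-382 (miR-382-5p): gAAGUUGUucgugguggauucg
miR-154 (miR-154-5p): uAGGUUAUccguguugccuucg
miR-411 (miR-411-5p): uAGUAGACcguauagcguacg

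Counted base by base from the 5′ end, miR-300 and miR-381 were identical at 19 of 22 positions, miR-376b and miR-376a at 18 of 21, miR-543 and miR-495 at 18 of 22, miR-382 and miR-154 at 15 of 22, and miR-379 and miR-411 at 14 of 21. Despite that resemblance, all 38 detected members with a sequence had different seeds. Over all 72, miR-379 shared its seed with miR-1193, and the minor strands miR-376b* and miR-376c* shared theirs, but miR-1193 and miR-376c* were not detected. Outside the region, the seed of miR-329 is also that of miR-362-3p and the seed of miR-495 that of miR-1192. Both of these had probes that were not detected. miR-12200-5p also shares the seed of miR-495, miR-7229-5p that of miR-411, and miR-344d-3p and miR-344e-3p that of miR-410. No probe carried these names. How far the array separates the close pairs was not tested.

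The 23 probes upstream of the cluster belong to hairpins on the plus strand between chr12:109563692-109618336, starting with that of miR-770 and ending with that of miR-370. The miR-379 to miR-410 cluster has 52 probes, and those with a reference sequence belong to hairpins at chr12:109709060-109743795. The cluster probes miR-485, miR-487b and miR-376c had no sequence under the names tried and were not placed. A stretch of 90.7 kb without members separates the groups.

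Detection was more frequent upstream than in the cluster. Of the 23 upstream probes 16 were detected (69.6%), and of the 52 cluster probes 24 (46.2%), beside 276 of the other 630 miRNA probes (43.8%). No test was made of these shares. The 16 upstream probes were both arms of miR-770, miR-337, miR-127, miR-434 and miR-136, and single probes for miR-540-5p, miR-665, miR-431*, miR-433, miR-341 and miR-370. In the cluster both arms of miR-300 and miR-376b were detected, and single probes for miR-379, miR-411, miR-323-5p, miR-329, miR-494, miR-666-5p, miR-543, miR-495, miR-667, miR-376a, miR-381, miR-487b, miR-382, miR-134, miR-668, miR-485, miR-154, miR-541, miR-409-5p and miR-410. Of the 40 detected probes 38 met the rule in both groups, and miR-134 and miR-409-5p met it only in good performers.

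The 35 probes that were not detected had mean raw intensities of 52.3 to 85.7 on single arrays, beside means of 63.0 to 64.4 for blank spots. For 22 of them no spot on any array had flag 0, among them miR-431, miR-369-3p, miR-376c and miR-299. In rodents miR-431 was linked to axon regrowth, and its hairpin, antisense to Rtl1, also gives the detected miR-431*. Other undetected probes came close to the rule. Of these, miR-409-3p met it on 1 good-performer array and miR-485* on 1 array of each group. Such probes are not well above background, and no fold change is given for them. Detected members had means of 73.3 to 1177.

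**Figure D1:**
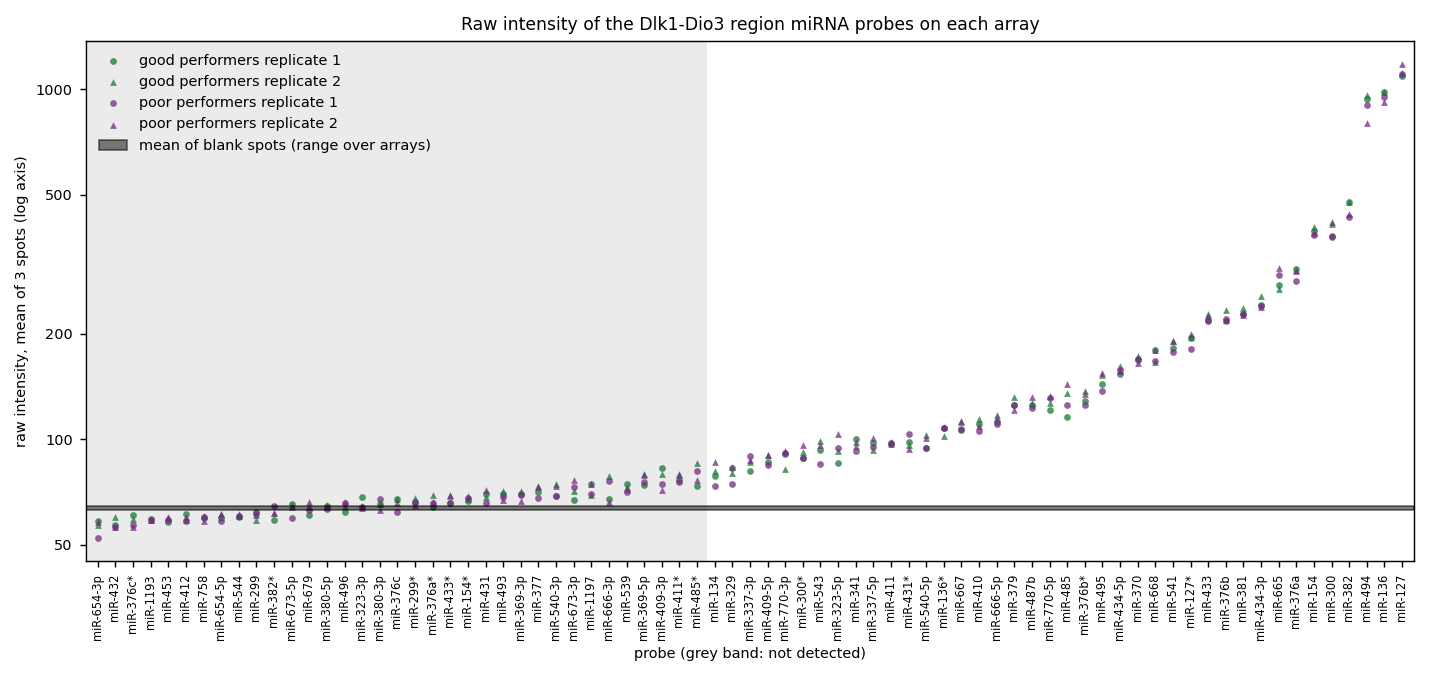
Raw intensity (mean of 3 spots, log axis) of all 75 Dlk1-Dio3 probes on the 4 arrays, ordered by mean, with probes that were not detected on grey and the range of blank-spot means as a dark band. The 35 undetected probes lie between 52.3 and 85.7, near the blanks, and the 4 arrays lie close together for nearly every probe. Heights of different probes are not comparable, since probes bind with unlike strength.

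Good and poor performers were compared probe by probe on background-corrected, quantile-normalized log2 intensity with limma, and p-values were adjusted by the Benjamini-Hochberg method over all 316 tested probes (threshold 0.05). None of the 40 detected members passed (limma; 0 higher and 0 lower), where 5.06% of all tested probes did (3.16% higher and 1.9% lower in good performers). At an unadjusted p under 0.05 there were 6 members, all with a lower mean in good performers, beside 20.9% of all tested probes (10.8% lower and 10.1% higher). The groups did not overlap for 15 members (37.5%), 14 of them lower and 1 higher in good performers, while 50.6% of all tested probes did not overlap (27.5% lower and 23.1% higher). With both directions summed, these shares lie below the background of the array. Taken alone, the shares lower in good performers lie above it, at 35% (14 of 40) without overlap and 15% (6 of 40) at an unadjusted p under 0.05. The 6 became 2 without either good-performer array and 3 without poor performers replicate 2.

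The members' differences were small. Log2 fold changes of good over poor performers ran from -0.22 (miR-665) to 0.07 (miR-494), with a median size of 0.029. Between the 2 arrays of a group, the median difference of the members was 0.032 in good and 0.053 in poor performers. These are differences of single arrays, which vary more than a difference between means of 2 arrays, so the sizes are not directly comparable. Only 9 of the 40 members (22.5%) differed between groups by more than the larger of their own 2 within-group differences, beside 39.9% of all tested probes. For 36 of the 40 the 95% interval of the difference lay within 1.25-fold either way, as it did for 87.3% of all tested probes. The exceptions were miR-665, miR-323-5p, miR-485 and miR-770-3p, whose intervals all reached lower than that. Changes of probes near the blank spots are understated on this scale. For dim members the 1.25-fold bound therefore applies to the processed intensity and not to the amount of RNA.

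More members had a lower than a higher mean in good performers, 31 against 9 (77.5%), where 53.8% of all tested probes had a lower mean. The median log2 fold change was -0.027 over the members and -0.0072 over all tested probes. It was -0.050 for the 16 upstream probes, of which 13 had a lower mean, and -0.024 for the 24 cluster probes, of which 18 did. Within the upstream probes it was -0.035 for the 8 antisense to Rtl1 and -0.091 for the other 8. Leaving out 1 array moved these medians. Over all members the median was -0.042 without good performers replicate 1 and -0.044 without poor performers replicate 1. For the upstream probes it was -0.026 without good performers replicate 2, and for the cluster -0.041 and -0.010 without poor performers replicates 1 and 2. For the antisense probes it ran from -0.058 to -0.015, moving by over 1.5 times without any of the 4 arrays, and for the other upstream probes it was -0.046 without good performers replicate 2. All of them stayed below 0. These medians are descriptions, and no test was made of a list. The sign depended on the scaling: without normalization 19 of 40 members had a lower mean and the median was 0.0028, while with the authors' normalized table or with scaling to spike-in controls 39 of 40 did. In those settings the median over all tested probes moved too, to 0.031, -0.083 and -0.11.

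**Figure D2:**
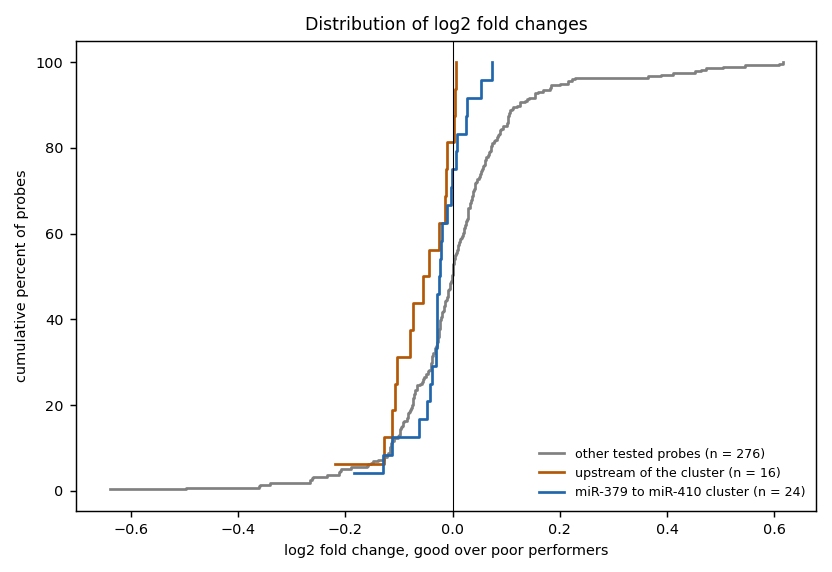
Cumulative percent of probes (vertical axis) by log2 fold change of good over poor performers (horizontal axis) for the 16 upstream probes, the 24 cluster probes and the 276 other tested probes. Together the member curves span -0.22 to 0.07, within the wider range of the other probes, and the upstream curve lies left of the cluster curve over most of its length.

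Upstream of the cluster, miR-665 had the largest difference of all members. Little is established about its role in the brain. Its 3 spots read 259, 285 and 286 on good performers replicate 1 and 262, 281 and 265 on replicate 2, against 302, 287 and 296 on poor performers replicate 1 and 307, 315 and 305 on replicate 2. Every spot of the poor performers was brighter than every spot of the good performers, though narrowly (lowest 287 against highest 286). The 3 spots are repeats on the same array and not separate samples. Normalized log2 intensity was 8.06 ± 0.076 (SD, n = 2) for the good and 8.28 ± 0.0047 (SD, n = 2) for the poor performers. This is a log2 fold change of -0.22 ± 0.05 (SE; 95% interval -0.35 to -0.092), a ratio of 0.859, and it did not pass (limma adjusted p = 0.106, unadjusted 0.0087). The call was reached with a trended and robust variance model (limma adjusted p = 0.0105). It was also reached with spike-in scaling (0.028), where the median over all tested probes was -0.11. The difference was between -0.29 and -0.14 over the 13 settings with all 4 arrays.

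miR-770 comes from a hairpin within Meg3, and both of its arms were detected. miR-770-5p had mean raw intensities of 121.0 and 126.7 on the good-performer arrays and 131.0 and 132.7 on the poor-performer arrays. The groups did not overlap on that scale or after normalization, and the log2 fold change came to -0.11 ± 0.03 (SE; limma adjusted p = 0.184). It passed in the authors' normalized table (adjusted p = 0.029), where all tested probes together also had a median below 0, and in no other setting. miR-770-3p read 90.7 and 82.3 in good and 91.3 and 92.3 in poor performers, with a log2 fold change of -0.13 ± 0.07 (SE; limma adjusted p = 0.422). One good-performer array lay next to the poor performers and the other below them. That lower array read within the range of undetected members, which reached 85.7.

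Both arms of miR-337 also had lower means. miR-337-3p read 81.3 and 86.0 in good and 89.3 and 87.0 in poor performers, without overlap, with a log2 fold change of -0.11 ± 0.04 (SE; limma adjusted p = 0.221). These values lie near background, since undetected members reached 85.7 on single arrays. In the authors' normalized table miR-337-3p passed (limma adjusted p = 0.046), but there the median over all tested probes was -0.083. miR-337-5p had -0.075, with groups that overlapped. The neighbouring miR-540-5p had -0.013.

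Among the miRNAs antisense to Rtl1, miR-127 is the best known, as a strand that directs cleavage of the Rtl1 transcript in placenta. Its mean raw intensity was 1087 and 1114 in good and 1103 and 1177 in poor performers, so the groups overlapped before normalization. After normalization they did not, at 10.06 ± 0.024 (SD, n = 2) and 10.17 ± 0.035 (SD, n = 2) log2 units. The log2 fold change was -0.10 ± 0.03 (SE; 95% interval -0.20 to -0.010; limma adjusted p = 0.209). The other arm, miR-127*, had -0.014 and groups that overlapped.

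Both arms of miR-136, a miRNA also antisense to Rtl1, were detected. The arm named miR-136 read 983 and 979 in good and 953 and 917 in poor performers, higher in good performers on the raw scale, yet after normalization the log2 fold change was 0.0061 ± 0.03 (SE; 95% interval -0.084 to 0.097). miR-136* read 108 and 102 in good and 108 and 108 in poor performers. The log2 difference of that arm was -0.080 (limma adjusted p = 0.470). It passed in the authors' normalized table (-0.17, limma adjusted p = 0.046), where the median over all tested probes was -0.083. The difference between arms was not tested.

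None of the remaining antisense probes passed. miR-433, which targets the growth factor Fgf20 in human cells, had -0.055, with normalized log2 intensities of 7.78 and 7.75 in good and 7.82 and 7.82 in poor performers, which do not overlap. miR-431* had -0.044. miR-434-5p had -0.025 and miR-434-3p -0.0099. Farther downstream miR-341 had 0.0032 and miR-370 had 0.0050, and their groups overlapped.

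**Figure D3:**
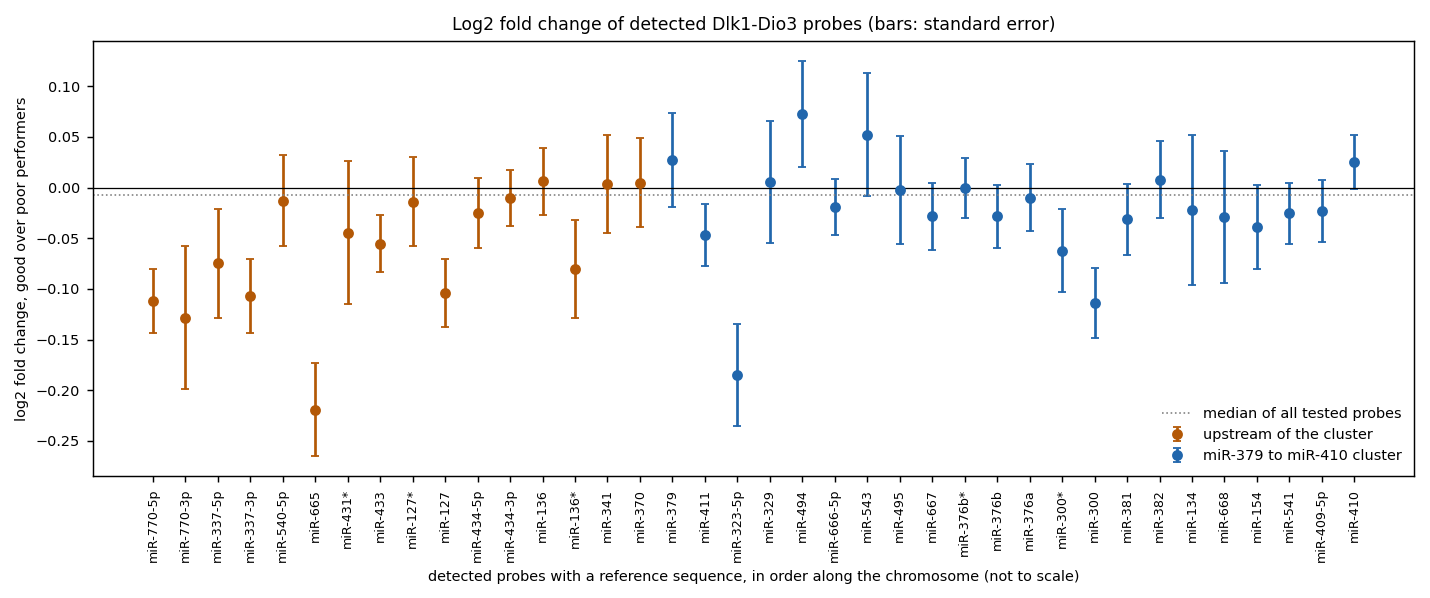
Log2 fold change of good over poor performers (vertical axis, bars are the standard error) for the 38 detected probes with a reference sequence, in their order along the chromosome (horizontal axis, not to scale). miR-665 (-0.22) among the upstream probes and miR-323-5p (-0.18) in the cluster lie lowest, and most cluster probes lie within 0.05 of 0.

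In the miR-379 to miR-410 cluster miR-323-5p had the largest difference. It read 85.7 and 92.3 in good and 94.7 and 103 in poor performers on the raw scale, and the groups did not overlap. Undetected members reached 85.7 on single arrays, so this probe reads near background. The other arm, miR-323-3p, was not detected. Normalized log2 intensity of miR-323-5p was 6.47 ± 0.044 (SD, n = 2) for the good and 6.65 ± 0.074 (SD, n = 2) for the poor performers. Their log2 fold change was -0.18 ± 0.05 (SE; 95% interval -0.32 to -0.045), and it did not pass (limma adjusted p = 0.176). With spike-in scaling it passed (adjusted p = 0.013), and over the 13 settings with all 4 arrays it ranged from -0.39 to -0.07.

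Members with known roles in dendrites and synapses were near 0, or their arrays disagreed. miR-134, which represses the kinase Limk1 in dendrites, read 78.7 and 81.3 in good and 73.3 and 86.0 in poor performers. The poor-performer arrays lay on both sides of the good performers, and one of them had only 1 spot at flag 0. The log2 fold change was -0.022 ± 0.07 (SE; 95% interval -0.23 to 0.18; limma adjusted p = 0.921). miR-381 and miR-329, which together with miR-134 support dendrite growth in cultured hippocampal neurons, had -0.031 and 0.0056. Mean raw intensity of miR-329 lay between 74.7 and 83.3 on the arrays. Both miR-134 and miR-329 thus read close to the blank spots, whose means were 63.0 to 64.4. Changes so near the blanks are understated, so their values near 0 cannot show that these miRNAs were unchanged. miR-485, which acts on the synaptic vesicle protein Sv2a, had -0.13, but its normalized log2 intensities were 6.87 and 7.05 in good and 7.02 and 7.15 in poor performers. The spread between replicates there was larger than the difference between groups (limma adjusted p = 0.471). With spike-in scaling miR-485 passed (-0.25, limma adjusted p = 0.047), but there the median over all tested probes was -0.11. Of the 4 detected probes of this list none passed, and none had groups that did not overlap.

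miR-300 is close in sequence to miR-381 and was the cluster's second member with an unadjusted p under 0.05. It read 378 and 412 in good and 381 and 418 in poor performers on the raw scale, which overlap, and 8.58 ± 0.032 (SD, n = 2) and 8.69 ± 0.031 (SD, n = 2) after normalization, which do not. The groups differed by -0.11 ± 0.03 log2 units (SE; limma adjusted p = 0.196), and for the other arm, miR-300*, the log2 fold change was -0.062. The groups of miR-300 were thus apart after normalization and not before it. The sign of the miR-300 difference was the same in all 13 settings with all 4 arrays, with values between -0.16 and -0.02.

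At the upper end, miR-494 read 940 and 963 in good and 904 and 798 in poor performers. One poor-performer array lay well below the other 3, and the log2 fold change was 0.073 ± 0.05 (SE; 95% interval -0.072 to 0.22; limma adjusted p = 0.541). miR-543 had 0.052 and miR-379, the first hairpin of the cluster, 0.027, both with groups that overlapped. miR-410, the last hairpin, was the 1 member whose normalized values were higher in good performers without overlap, at 6.79 ± 0.0040 (SD, n = 2) against 6.77 ± 0.0029 (SD, n = 2) log2 units. That is a log2 fold change of 0.025 (limma adjusted p = 0.668).

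Most other cluster members differed by less than 0.05 log2 units. miR-411 had -0.047, miR-154 -0.039, miR-376b -0.028, miR-376a -0.0099, miR-495 -0.0023 and miR-382 0.0079. The miR-376 miRNAs are known for adenosine-to-inosine editing of their seed in brain, which an array of this kind does not show. miR-495 has been linked to the neurotrophin Bdnf. miR-541 had -0.025, miR-668 -0.029 and miR-667 -0.028. Of these, miR-667 passed in the authors' normalized table (-0.16, adjusted p = 0.046), where the median over all tested probes was -0.083. There, 4 members passed in all, each lower, among 37 of the 316 probes. After each array of these values was centred on its median, 0 members passed.

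**Figure D4:**
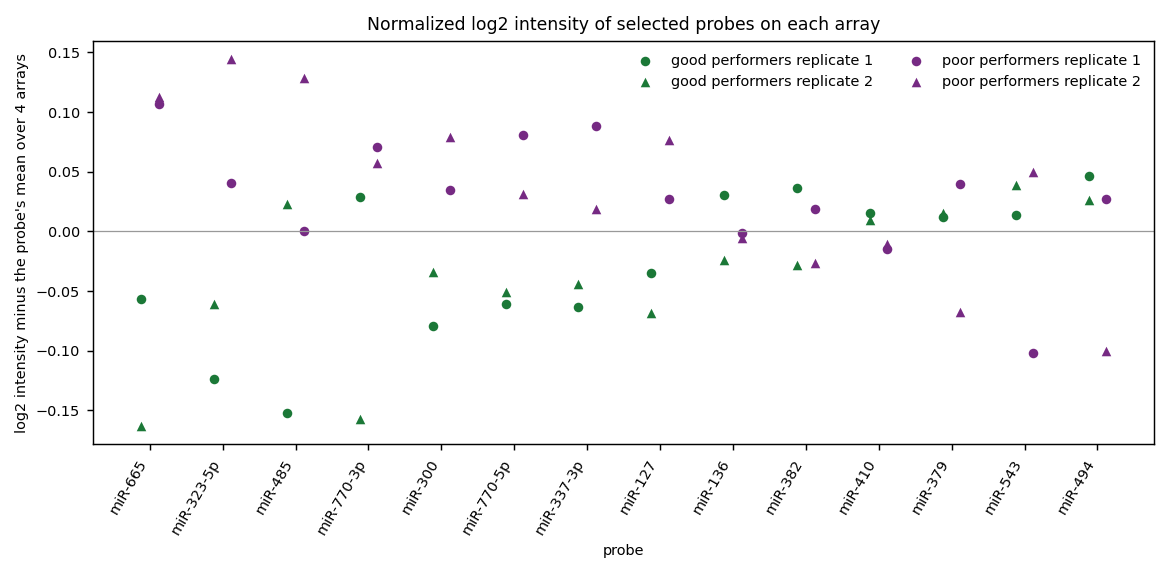
Normalized log2 intensity of 14 members on each array (vertical axis), less the mean of that probe over the 4 arrays. The groups are apart for miR-665, miR-323-5p, miR-770-3p, miR-300, miR-770-5p, miR-337-3p, miR-127 and miR-410, and for miR-485, miR-136, miR-382, miR-379, miR-543 and miR-494 they overlap.

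The raw intensities, before any scaling, gave a further view. Over all tested probes 45.3% did not overlap, 37% being higher and 8.23% lower in good performers, so most probes that separated were brighter on the good-performer arrays. Among the 40 members, 7 were higher and 6 lower without overlap. The 6 lower ones were miR-665, miR-323-5p, miR-770-3p, miR-770-5p, miR-337-3p and miR-411. The 7 higher ones were miR-136, miR-154, miR-376a, miR-382, miR-410, miR-434-3p and miR-494, of which 6 overlapped once the arrays were normalized.

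Several members at the lower end are rich in G and C, a feature that was looked at after the fold changes were known. Other members as rich lay near 0, such as miR-370 (68.2%, log2 fold change 0.0050) and miR-666-5p (68.2%, -0.019). At the lower end, miR-337-3p had 40.9%. GC content over the 38 detected members with a sequence ran from 36.4% to 72.7%, with a median of 55.5% upstream and 46.5% in the cluster. Across these 38 probes GC content and log2 fold change had a Pearson r of -0.42 and a Spearman rho of -0.34, and r was -0.26 over the 16 upstream and -0.45 over the 22 cluster probes. Across 66 other tested probes whose name matches one mature sequence, r was -0.37 and rho -0.20. The probes share the same 4 arrays, so these are descriptions and carry no p. For differences between the arrays of a group, r with GC content was 0.21 over the members in good and -0.019 in poor performers. Mean raw intensity, on the log2 scale, had an r of 0.069 with the log2 fold change.

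Other miRNAs near this biology were counted for comparison. Of 9 probes for miRNAs of other imprinted loci (miR-296, miR-298, miR-335, miR-483 and miR-675) 5 were tested and none passed (limma; median -0.045, 1 at an unadjusted p under 0.05, miR-298 at -0.11). Of 13 probes for other neuronal or activity-regulated miRNAs 10 were tested and none passed (median 0.0039, 2 at an unadjusted p under 0.05). miR-132, which is induced by the activity-dependent factor CREB, had 0.091.

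As a check of the tissue, the neuronal markers miR-124, miR-9, miR-128, miR-138 and miR-137 were all detected. Their summed raw intensities, not normalized, were 31186 and 31214 in good and 28532 and 29178 in poor performers. None of the 5 passed in limma (1 at an unadjusted p under 0.05). After normalization 3 of the 5 had a lower and 2 a higher mean in good performers. Their median log2 fold change was -0.0093. All 5 probes listed for astrocytes (miR-29a, miR-29b, miR-29c, miR-26a and miR-26b) were detected. Their sums were 10431 and 10813 against 9642 and 9755, and none passed in limma (2 at an unadjusted p under 0.05). After normalization all 5 had a higher mean in good performers, with a median log2 fold change of 0.0093. How specific these probes are to astrocytes was not tested. All 3 oligodendrocyte probes were detected (1071 and 1080 against 1143 and 1164), and miR-219 passed, lower in good performers. Of 8 microglial and immune probes 4 were detected (754 and 784 against 744 and 761), of 5 vascular probes 5 (1518 and 1607 against 1502 and 1512), of 11 choroid plexus and ependymal probes 5 (1072 and 1092 against 1060 and 1075) and of 3 erythroid probes 2 (314 and 342 against 336 and 489). None of these passed in limma, and 2 vascular probes and no others had an unadjusted p under 0.05. miR-155, miR-223 and both arms of miR-142, which mark microglia and blood cells, were not detected. The summed raw intensity of the 75 members was 11306 and 11572 against 11147 and 11362. Over all 705 miRNA probes the sum was also higher in good performers, at 701280 and 714952 against 681156 and 692599. Each of these sums runs over every probe of its list, detected or not, with background included. In tissue RNA, fewer cells of a type and less RNA per cell cannot be told apart, and the part of cell makeup in the members' differences was not tested.

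**Figure D5:**
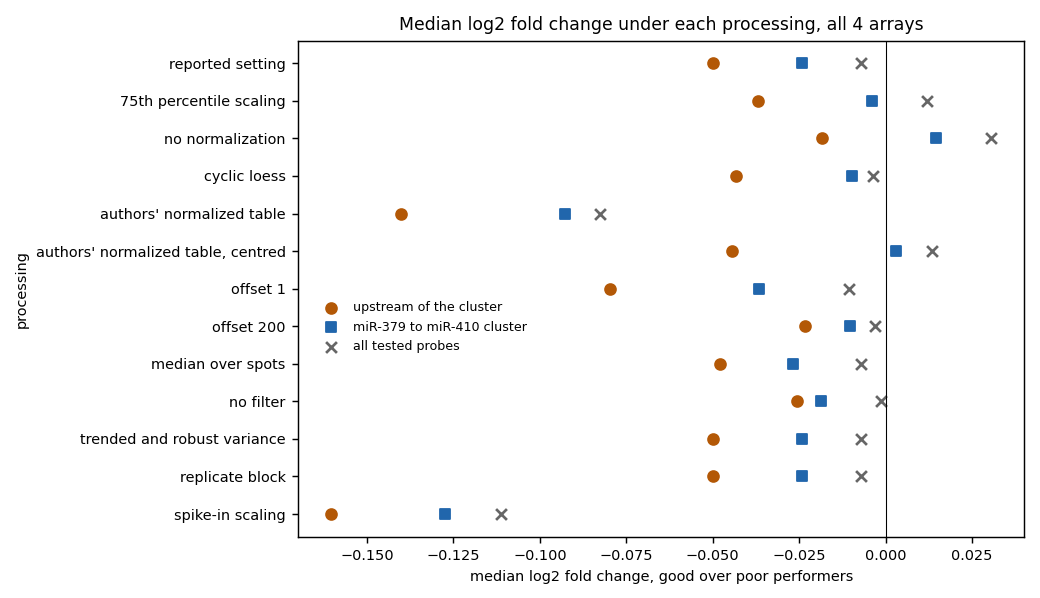
Median log2 fold change of good over poor performers (horizontal axis) for the upstream probes, the cluster probes and all tested probes under 13 ways of processing (vertical axis), each with all 4 arrays. In each of the 13 the upstream median lies left of the cluster median, and both left of the median of all tested probes. The position of all of them relative to 0 moves with the scaling. All settings use the same 4 arrays, and several differ only by a shift of whole arrays, the variance model or a block. Such settings share the same order by construction, so the 13 are not separate checks.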

How the data were processed

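RNA labelled with Cy5 was hybridised to 1-colour arrays, per the labels' protocols. The deposited raw intensity, per the file headers, is unnormalized spot brightness, with a deposited quality flag for each spot. The authors' normalized intensity (method not given in the sources used here) and their deposited log2 ratio of good over poor performers were also at hand, and the log2 ratio was not used for any result. Raw intensity was corrected with normexp (offset 50), log2-transformed and brought to common quantiles across arrays using miRNA spots alone; the 3 spots of a probe were averaged. Means were fitted with lmFit and eBayes of limma 3.58.1 in R 4.3.3, two-sided. A fold change on this scale understates changes of dim probes. The fit was tested on simulated data with changes larger than that of any member, so this test does not cover differences as small as theirs. With 2 arrays against 2, an exact permutation test cannot go below 0.333. No column of other samples was present. The replicate numbers were not taken as pairing: deviations of same-numbered arrays correlated at 0.18 over 316 probes. Members, lists and the rule for named probes (largest differences, brightest, known roles, both arms, calls that vary) were chosen with earlier results of these data known. Gene order came from RefSeq, GRCm38.p6. No build is named for the array.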

Additional observations from a re-analysis of the deposited data

How the results depend on the processing

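The number of members called was 0 in 10 of the 13 settings with all 4 arrays and in all 4 settings that left out 1 array. It was 4 when the authors' own normalization was used, 3 after scaling to spike-in controls (an alternative chosen after seeing the data) and 1 with a trended and robust variance model, each lower in good performers. Calls over all probes went from 16 to 37, 31 and 30 in these settings, to 6 when spots were summarised by their median, to 7 at an offset of 1, and to 0 to 0 without 1 array, where fewer arrays enter the fit and a single array borrows its spread from the other group. At an unadjusted p under 0.05 these fits gave 41 to 57 probes, 2 to 6 of them members. A replicate block left 13 probes and 0 members past the threshold. The median log2 fold change of the members, -0.027 as reported, was 0.0028 without normalization, -0.12 on the authors' values and -0.14 on the spike-in scale. It ran from -0.044 to -0.020 without 1 array, at -0.042 without good performers replicate 1 and -0.044 without poor performers replicate 1. For upstream probes it was -0.018 without normalization, -0.14 on the authors' values, -0.16 on the spike-in scale and -0.080 at offset 1. For cluster probes it was -0.0040 with 75th percentile scaling, 0.014 without normalization, 0.0030 on the authors' values after centring, -0.093 before it and -0.13 on the spike-in scale. Less the median of all tested probes, the median of the members stayed between -0.034 and -0.011 in the 13 settings. Settings that differ only by a shift of whole arrays, the variance model or a block share that value by construction. Detected members numbered 44 with 1 spot required, 38 with all 3 spots and 38 with 2 spots on all 4 arrays. The cause of these changes was not tested. Many detected members lie near the blank spots, which limits what can be seen for them.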
